A study of Mus musculus with 9 samples.

Results

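The 10 genes described here encode the elastic fibre of the lung: Eln, Lox, Loxl1, Fbn1, Mfap4, Mfap5, Emilin1, Fbln1, Fbln2 and Fbln5. They were chosen by name, as genes of the elastin core, its microfibrils and its crosslinking enzymes, out of the 23944 genes of the deposited tables, and all 10 were found there. RNA of whole left lungs of adult wild-type mice was sequenced in 3 groups of 3 libraries. Shock grafts came from C57BL/6 donors held in hypovolemic shock for 4 h, a loss of blood volume that kept mean arterial pressure at 15 ± 5 mmHg, with 20 h of recovery. The lungs of these donors then spent 24 h in cold storage at 0 °C and 2 h under reperfusion in a Balb/C recipient. Cold-ischemia grafts were C57BL/6 lungs that had the same storage, transplantation into Balb/C mice and reperfusion without shock of the donor. Naive lungs came from C57BL/6 mice for which the labels name no procedure. Both graft groups therefore share cold storage, surgery, an allogeneic recipient and reperfusion, and a graft can hold blood cells of its recipient.

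Elastic fibres let the alveolar wall, airways and vessels stretch and recoil. Tropoelastin, the product of Eln, is laid on a scaffold of fibrillin microfibrils, guided there by fibulins, and crosslinked by lysyl oxidases. In the mouse lung most elastin is made while alveoli form, by fibroblasts and smooth muscle, and the polymer then turns over very slowly. RNA levels do not measure the fibre that is already in place.

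Libraries held between 18913487 and 34986276 counted reads, and the 10 genes together took between 0.0889% and 0.4134% of the reads of a library. Groups are those of the sample titles. For 2 grafts the authors' deposited tables give the opposite group: the library titled cold-ischemia replicate 2 stands there among the shock grafts, and the library titled shock replicate 3 among the cold-ischemia grafts. Both groupings were fitted, and a call of the 10 genes that differs between them is given under each. An earlier record is cited by the labels of every naive library (3 of 3) and of 0 of 6 grafts, so a difference in batch between naive lungs and grafts cannot be told apart from the difference between the groups. Among the naive lungs, replicate 3 was the highest library for 10 of the 10 elastic fibre genes, against 39.8% of the 15834 genes tested. Among the grafts, shock replicate 2 was the lowest library for 6 of the 10, against 28% of the genes tested. Calls of the 10 genes that turn on either library are given without it as well, but correlations are not.

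Levels of 1 gene across libraries are CPM, read counts brought to a common library size with TMM scaling. The order between genes was taken from the authors' deposited FPKM, which divide reads by gene length and library total. On that scale Mfap4, a microfibril-associated glycoprotein, was the highest of the 10 genes, with a mean level of 176 ± 123 FPKM in the 6 grafts and 442 ± 221 FPKM in the 3 naive lungs (SD). Lox came next in the grafts at 68.0 ± 22.6 FPKM, followed by Eln at 44.2 ± 29.4 FPKM and Loxl1 at 41.9 ± 8.78 FPKM. These 3 levels lie within the spread of their libraries. In naive lungs Lox was the fifth of the 10, at 34.7 ± 16.3 FPKM, and Eln the second, at 225 ± 283 FPKM. Fbln5 at 34.9 ± 3.69 FPKM, Fbln1 at 30.4 ± 4.78 FPKM and Emilin1 at 28.7 ± 4.22 FPKM were neighbours of Lox in naive lungs within the spread of the libraries. The next levels in the grafts were Emilin1 at 23.2 ± 3.99 FPKM, Fbln1 at 18.7 FPKM (between 3.84 and 30.2 FPKM), Fbln5 at 16.2 ± 10.3 FPKM and Fbn1 at 13.1 ± 5.55 FPKM, again within each other's spread, and then Mfap5 at 8.32 ± 4.49 FPKM. Fbln2 was the lowest of the 10 in both, at 4.57 ± 1.73 FPKM in grafts and 7.12 ± 1.77 FPKM in naive lungs. CPM divided by gene length gave the same rank to each of the 10 genes in grafts and in naive lungs.

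**Figure D1:**
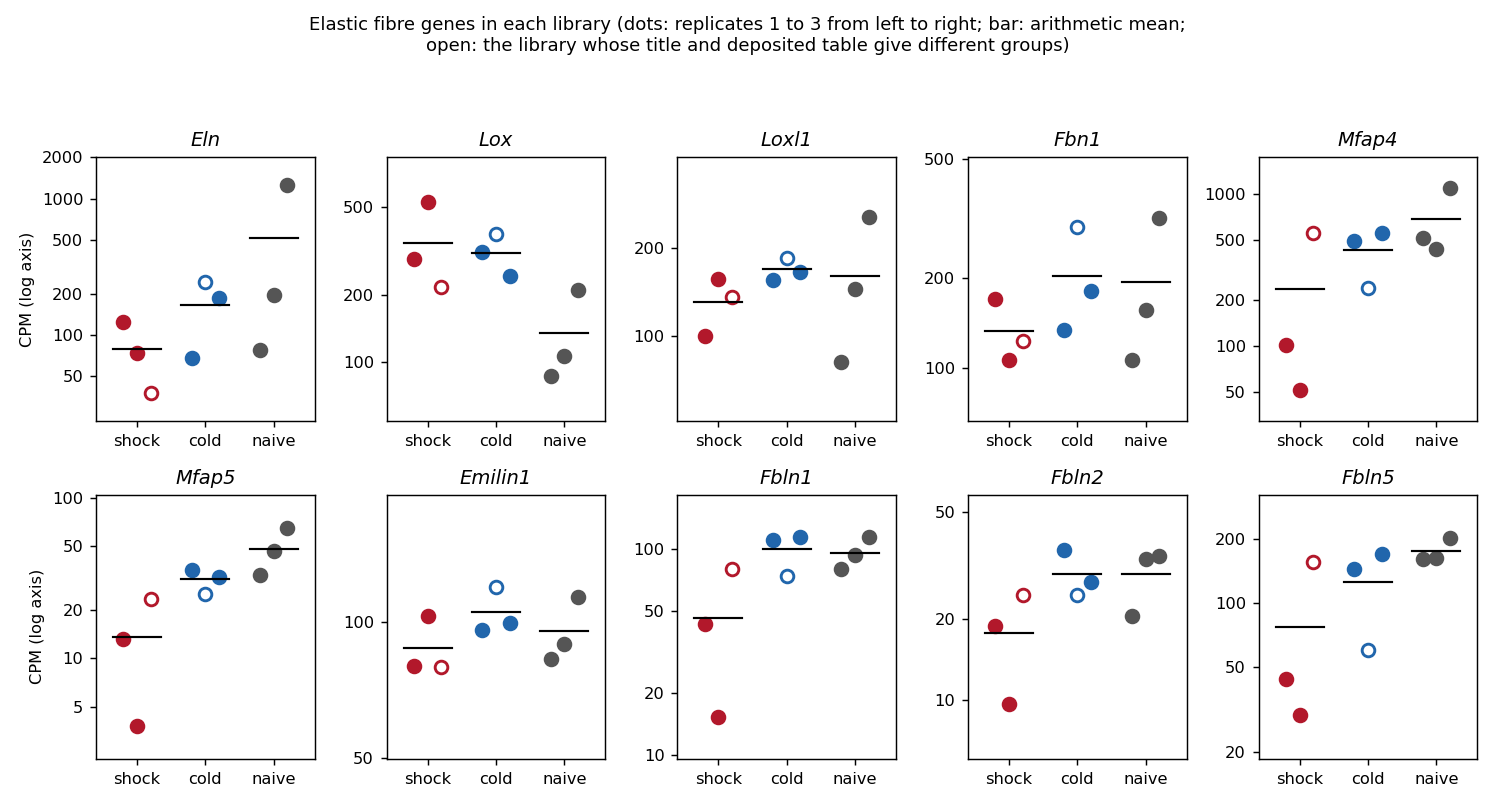
Level of each elastic fibre gene in CPM (log axis) in shock grafts, cold-ischemia grafts and naive lungs, 1 dot per library and a bar at the arithmetic mean of 3 libraries; open dots are the libraries whose group differs between title and table. Lox lies above the naive lungs in all 6 grafts, Eln stands alone in naive replicate 3 at 1256 CPM, and Fbln5 and Mfap4 are low in shock replicates 1 and 2 and in cold-ischemia replicate 2.

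Eln encodes tropoelastin and lies on chromosome 5, 134703781 to 134747241, on the minus strand of mm10. It had 124, 74.2 and 37.3 CPM in shock grafts 1 to 3 and 67.4, 243 and 186 CPM in cold-ischemia grafts 1 to 3, against 78.3, 196 and 1256 CPM in naive lungs 1 to 3. All 6 grafts lay below naive replicate 3, but they overlapped the other 2 naive lungs. Between all 6 grafts and naive lungs Eln fell by 2.16 ± 0.70 on the log2 scale (SE, edgeR adjusted p = 0.0299), and between shock grafts and naive lungs by 2.70 ± 0.90 (edgeR adjusted p = 0.0349). In cold-ischemia grafts against naive lungs the log2 fold change was -1.62 ± 0.86, which did not pass (edgeR adjusted p = 0.187).

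The fall of Eln rests on naive replicate 3. That library held 16 times the Eln level of naive replicate 1 and 6.4 times that of naive replicate 2, and only 3 of the 15834 genes tested, Eln among them, had as wide a range over the naive lungs. Without it the log2 fold change of Eln was -0.27 in all 6 grafts against naive lungs (edgeR adjusted p = 0.732), -0.80 in shock grafts against naive lungs (edgeR adjusted p = 0.325) and 0.27 in cold-ischemia grafts against naive lungs (edgeR adjusted p = 0.788). For all 6 grafts the call was also lost without cold-ischemia replicate 1 (edgeR adjusted p = 0.0585), without cold-ischemia replicate 3 (0.051) and without both libraries whose groups are in doubt (0.0571). For shock grafts it was lost without shock replicate 2 (edgeR adjusted p = 0.0852), without shock replicate 3 (0.082) and without both doubtful libraries (0.1). It was also lost when cold-ischemia grafts were kept out of the fit (edgeR adjusted p = 0.0543). With the tables' grouping Eln was not called in shock grafts against naive lungs (log2 fold change -1.79, edgeR adjusted p = 0.129). The same naive library was the highest for all 10 collagen genes listed below.

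The 3 tested genes whose log2 CPM followed Eln most closely over the 6 grafts were BC021891 (Pearson r = 0.990), Tmem30b (r = 0.986) and Myo18a (r = 0.984). They are given only as a description of 6 libraries picked as the highest of all genes. None of them shared the peak of Eln in naive replicate 3: Tmem30b, for example, had 24.0 CPM there, against 28.2 and 28.3 CPM in naive replicates 1 and 2.

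Lox encodes lysyl oxidase, the copper enzyme that crosslinks tropoelastin and collagen. It lies on chromosome 18, 52516069 to 52529867, on the minus strand. Its level was 292, 525 and 217 CPM in shock grafts 1 to 3 and 314, 378 and 243 CPM in cold-ischemia grafts 1 to 3, against 86.4, 106 and 211 CPM in naive lungs 1 to 3. Every graft lay above every naive lung, by a narrow margin between shock replicate 3 and naive replicate 3, and Lox was the single member with this separation. Lox rose by 1.28 ± 0.34 on the log2 scale in all 6 grafts against naive lungs, or 2.44-fold (SE, edgeR adjusted p = 0.012). The rise was 1.36 ± 0.38 in shock grafts (edgeR adjusted p = 0.0162) and 1.21 ± 0.38 in cold-ischemia grafts (edgeR adjusted p = 0.0331), both against the same naive lungs.

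The rise of Lox kept its direction under all 16 alternative settings for all 6 grafts, with log2 fold changes between 1.04 and 1.77. Its edgeR adjusted p was 0.0601 without naive replicate 1 and 0.0608 without naive replicate 2, and 0.00392 without naive replicate 3. In shock grafts against naive lungs the call was lost without shock replicate 2 (log2 fold change 0.92, edgeR adjusted p = 0.0601), without naive replicate 1 (0.0658) and without naive replicate 2 (0.0669). In cold-ischemia grafts against naive lungs it was lost without cold-ischemia replicate 1 (edgeR adjusted p = 0.0738), cold-ischemia replicate 2 (0.105), naive replicate 1 (0.118), naive replicate 2 (0.119) or both doubtful libraries (0.0727). With the tables' grouping Lox was called in shock grafts (log2 fold change 1.57, edgeR adjusted p = 0.00304) and in cold-ischemia grafts (0.94, edgeR adjusted p = 0.0436) against naive lungs. The authors' deposited log2 fold change was 1.54 in shock grafts (authors' adjusted p = 2.32e-05). In cold-ischemia grafts it was 0.87 and did not pass (authors' adjusted p = 0.0821).

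Loxl1 encodes the lysyl oxidase paralog that works with Fbln5 in maintaining elastic fibres in the mouse. It had 99.97, 157 and 137 CPM in shock grafts 1 to 3 and 156, 185 and 166 CPM in cold-ischemia grafts 1 to 3, against 82.0, 145 and 256 CPM in naive lungs 1 to 3. The grafts lay within the range of the naive lungs. The log2 fold change of Loxl1 in all 6 grafts against naive lungs was -0.11 ± 0.29, with a 95% interval between -0.74 and 0.52 (SE, edgeR adjusted p = 0.775). The ratio of the FPKM of Lox to that of Loxl1 was 2.18, 2.51 and 1.18 in shock grafts 1 to 3 and 1.502, 1.52 and 1.09 in cold-ischemia grafts 1 to 3, against 0.786, 0.547 and 0.615 in naive lungs 1 to 3. This ratio does not depend on library scaling. It was above 1 in all 6 grafts and below 1 in all 3 naive lungs, and was chosen after the values were seen, so it carries no test.

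Fbn1 encodes fibrillin-1, the main subunit of the microfibril, on chromosome 2, 125300594 to 125507993. It had 171, 106 and 123 CPM in shock grafts 1 to 3 and 134, 297 and 181 CPM in cold-ischemia grafts 1 to 3, against 106.8, 157 and 317 CPM in naive lungs 1 to 3. The groups overlapped, and the log2 fold change in all 6 grafts against naive lungs was -0.23 ± 0.34 (SE, edgeR adjusted p = 0.61). Emilin1 encodes a glycoprotein at the boundary of elastin and microfibrils that in the mouse restrains processing of the TGF-beta precursor. It was the steadiest of the 10, with 79.9, 103 and 79.6 CPM in shock grafts 1 to 3 and 96.0, 120 and 99.5 CPM in cold-ischemia grafts 1 to 3, against 83.0, 89.7 and 114 CPM in naive lungs 1 to 3. Its log2 fold change in all 6 grafts against naive lungs was 0.005 ± 0.145, with a 95% interval between -0.32 and 0.33 (SE, edgeR adjusted p = 0.98), and its sign turned under several settings.

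Mfap5, also called MAGP-2, binds fibrillin microfibrils and lies on chromosome 6, 122505845 to 122529290. It had 13.1, 3.79 and 23.5 CPM in shock grafts 1 to 3 and 35.6, 25.3 and 32.0 CPM in cold-ischemia grafts 1 to 3, against 32.8, 46.3 and 65.0 CPM in naive lungs 1 to 3. All 3 shock grafts lay below all 3 naive lungs, while cold-ischemia replicate 1 was above naive replicate 1. Mfap5 fell by 1.83 ± 0.50 on the log2 scale in shock grafts against naive lungs (SE, edgeR adjusted p = 0.0139) and by 1.23 ± 0.40 in all 6 grafts (edgeR adjusted p = 0.0302). In cold-ischemia grafts against naive lungs its log2 fold change was -0.64 ± 0.48 (edgeR adjusted p = 0.356), and 0 of 17 alternative settings called it. The authors' deposited values, in their own grouping, differ on both calls. They are -0.63 in cold-ischemia grafts (authors' adjusted p = 0.0247) and -1.42 in shock grafts (authors' adjusted p = 0.0591), both against naive lungs. Without naive replicate 3 the log2 fold change was -1.55 in shock grafts (edgeR adjusted p = 0.0524) and -0.95 in all 6 grafts (edgeR adjusted p = 0.143). For all 6 grafts the call was also lost without shock replicate 1 (edgeR adjusted p = 0.0526), without cold-ischemia replicate 2 (0.0641) and without naive replicate 2 (0.0728). In shock grafts Mfap5 was called under 16 of 17 alternative settings, including the tables' grouping (edgeR adjusted p = 0.0161).

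Mfap4 binds fibrillin and tropoelastin, and lies on chromosome 11, 61485431 to 61488900. It had 102, 51.4 and 556 CPM in shock grafts 1 to 3 and 491, 241 and 556 CPM in cold-ischemia grafts 1 to 3, against 515, 435 and 1087 CPM in naive lungs 1 to 3. Shock replicates 1 and 2 and cold-ischemia replicate 2 lay below every naive lung, and the other 3 grafts did not. The log2 fold change of Mfap4 against naive lungs was -1.52 ± 0.74 in shock grafts (SE, edgeR adjusted p = 0.124) and -0.66 ± 0.72 in cold-ischemia grafts (edgeR adjusted p = 0.537). Mapk7, which overlaps Mfap4 on the opposite strand, had between 11.3 and 26.6 CPM in all 9 libraries. The sources used here do not say whether strand was used in counting, so reads of the overlap cannot be assigned. Opposite-strand genes also overlap Eln (Gm30003), Fbn1 (Gm9913, at most 0.2003 CPM) and Lox, and the same limit holds for their counts. Without shock replicate 3 Mfap4 was called in shock grafts (log2 fold change -3.14, edgeR adjusted p = 0.00105) and in all 6 grafts (-1.90, edgeR adjusted p = 0.00194), where it was -1.09 ± 0.61 with every library (edgeR adjusted p = 0.173).

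Fbln5, Fbln1 and Fbln2 encode fibulins, extracellular glycoproteins with repeats of the EGF type. Fbln5 tethers tropoelastin and lysyl oxidases to microfibrils, and mice without it have loose, disorganised elastic fibres in lung, skin and vessels. Fbln1 and Fbln2 are found in elastic fibres and basement membranes. Over the 6 grafts these 3 genes followed each other (Pearson r of log2 CPM between 0.838 and 0.976). Shock replicate 2 was the lowest graft for all 3, and r without it is not given. For them, and for Emilin1, which varied least, a RefSeq promoter window of build GRCm38.p6 is printed, from 250 bases before to 50 bases after the start. Fbln1 and Fbln5 have 2 windows each in the RefSeq table, of which the one whose start is nearest to that of the deposited gene was used. The RefSeq start lay 64 bases from that of the deposited gene for Fbln5 and 0 for Fbln1. For Fbln2 it lay 309 bases away and for Emilin1 384. Capitals mark every match on either strand to the TATA box (TATAAA), the CCAAT box (CCAAT), the GC box (GGGCGG) or the AP-1 site (TGANTCA). The windows are chr12:101819070-101819369 (minus strand) for Fbln5, chr15:85205699-85205998 (plus strand) for Fbln1, chr6:91212514-91212813 (plus strand) for Fbln2 and chr5:30913536-30913835 (plus strand) for Emilin1.
Fbln5: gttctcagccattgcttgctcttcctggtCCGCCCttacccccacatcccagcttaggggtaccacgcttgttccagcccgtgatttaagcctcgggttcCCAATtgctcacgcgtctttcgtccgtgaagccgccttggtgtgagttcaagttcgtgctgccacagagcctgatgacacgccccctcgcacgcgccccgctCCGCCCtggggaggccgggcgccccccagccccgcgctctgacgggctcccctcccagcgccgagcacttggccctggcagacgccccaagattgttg
Fbln1: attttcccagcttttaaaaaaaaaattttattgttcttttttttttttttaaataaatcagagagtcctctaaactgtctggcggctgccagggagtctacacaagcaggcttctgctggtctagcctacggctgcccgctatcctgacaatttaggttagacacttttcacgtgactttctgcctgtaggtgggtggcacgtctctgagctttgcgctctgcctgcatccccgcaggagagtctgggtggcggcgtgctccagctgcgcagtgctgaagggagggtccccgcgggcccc
Fbln2: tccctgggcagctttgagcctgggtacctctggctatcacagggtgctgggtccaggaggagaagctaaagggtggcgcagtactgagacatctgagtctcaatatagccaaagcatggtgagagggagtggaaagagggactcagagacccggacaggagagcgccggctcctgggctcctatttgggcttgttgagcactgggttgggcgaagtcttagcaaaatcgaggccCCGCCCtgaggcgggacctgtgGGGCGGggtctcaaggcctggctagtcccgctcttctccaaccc
Emilin1: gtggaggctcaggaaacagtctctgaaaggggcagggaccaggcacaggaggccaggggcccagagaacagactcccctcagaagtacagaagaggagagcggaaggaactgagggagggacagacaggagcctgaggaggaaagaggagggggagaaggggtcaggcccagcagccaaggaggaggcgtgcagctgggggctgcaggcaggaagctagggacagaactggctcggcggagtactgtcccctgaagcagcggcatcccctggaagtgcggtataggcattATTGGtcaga

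No motif was matched in all 3 printed fibulin windows; the other window of Fbln1 and of Fbln5 was not searched. Fbln5 held 2 matches to GGGCGG and 1 to CCAAT, Fbln2 held 2 to GGGCGG, and Fbln1 held none of the 4 motifs. Emilin1 held 1 match to CCAAT, 41 bases after the RefSeq start. Of the 32851 promoter windows of the table, 35.7% hold a GC box, 37.4% a CCAAT box, 13.6% a TATA box and 7.81% an AP-1 site. RefSeq windows were found for 5 of the 10 members, Fbn1 being the fifth.

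Fbln5 had 44.2, 29.6 and 157 CPM in shock grafts 1 to 3 and 145, 60.5 and 170 CPM in cold-ischemia grafts 1 to 3, against 162, 163 and 202 CPM in naive lungs 1 to 3. Shock replicates 1 and 2 and cold-ischemia replicate 2 were at well under the level of every other library. With the groups of the titles, the log2 fold change against naive lungs was -1.19 ± 0.55 in shock grafts (SE, edgeR adjusted p = 0.107), -0.49 ± 0.54 in cold-ischemia grafts (edgeR adjusted p = 0.541) and -0.84 ± 0.46 in all 6 grafts (edgeR adjusted p = 0.164). None of these passed. Without shock replicate 3 Fbln5 was called in shock grafts (log2 fold change -2.25, edgeR adjusted p = 0.00138) and in all 6 grafts (-1.37, edgeR adjusted p = 0.00308).

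Fbln1 had 43.3, 15.3 and 80.1 CPM in shock grafts 1 to 3 and 111, 74.0 and 115 CPM in cold-ischemia grafts 1 to 3, against 80.5, 93.3 and 115 CPM in naive lungs 1 to 3. Its log2 fold change against naive lungs was -1.06 ± 0.44 in shock grafts (SE, edgeR adjusted p = 0.0814) and 0.05 ± 0.44 in cold-ischemia grafts (edgeR adjusted p = 0.941). Fbln2 had 18.8, 9.62 and 24.6 CPM in shock grafts 1 to 3 and 36.2, 24.6 and 27.3 CPM in cold-ischemia grafts 1 to 3, against 20.6, 33.5 and 34.4 CPM in naive lungs 1 to 3. Its log2 fold change was -0.74 ± 0.32 in shock grafts (edgeR adjusted p = 0.0894) and -0.003 ± 0.315 in cold-ischemia grafts (edgeR adjusted p = 0.996), both against naive lungs. Without shock replicate 3 both were called in shock grafts against naive lungs, Fbln1 at -1.71 (edgeR adjusted p = 0.0056) and Fbln2 at -1.05 (edgeR adjusted p = 0.0247), and Fbln1 also in all 6 grafts at -0.83 (edgeR adjusted p = 0.0374). Fbln1 was called in shock grafts with DESeq2 as well (adjusted p = 0.0402), and both genes were with upper-quartile scaling (edgeR adjusted p = 0.0392 for Fbln1 and 0.0317 for Fbln2). Cold-ischemia grafts lay within or near the naive range for both genes, and the lowest value of each was in shock replicate 2.

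Counted over the 10 genes, all 6 grafts against naive lungs gave 1 gene higher (Lox), 2 lower (Eln and Mfap5) and 7 that did not pass. In the same comparison 41.8% of the 15834 genes tested were called, 22.1% higher and 19.7% lower, so the count of members called is no larger than that of genes at large. Groups did not overlap for 1 of the 10 genes, Lox, against 40.9% of the genes tested. Shock grafts against naive lungs gave 3 called members, 1 higher and 2 lower, where 39.9% of all genes were called. Cold-ischemia grafts against naive lungs gave 1, Lox, where 30.6% of all genes were called. The median log2 fold change of the 10 genes was -0.90 in shock grafts and 0.03 in cold-ischemia grafts, beside -0.06 and -0.04 over all genes tested. These comparisons share the 3 naive libraries. Of all called genes, 52.8% were higher in all 6 grafts, 55.1% in shock grafts and 57.1% in cold-ischemia grafts, but 34.8%, 36.5% and 39.3% with upper-quartile scaling, which moved the median of all genes to -0.25, -0.28 and -0.22 on the log2 scale.

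**Figure D2:**
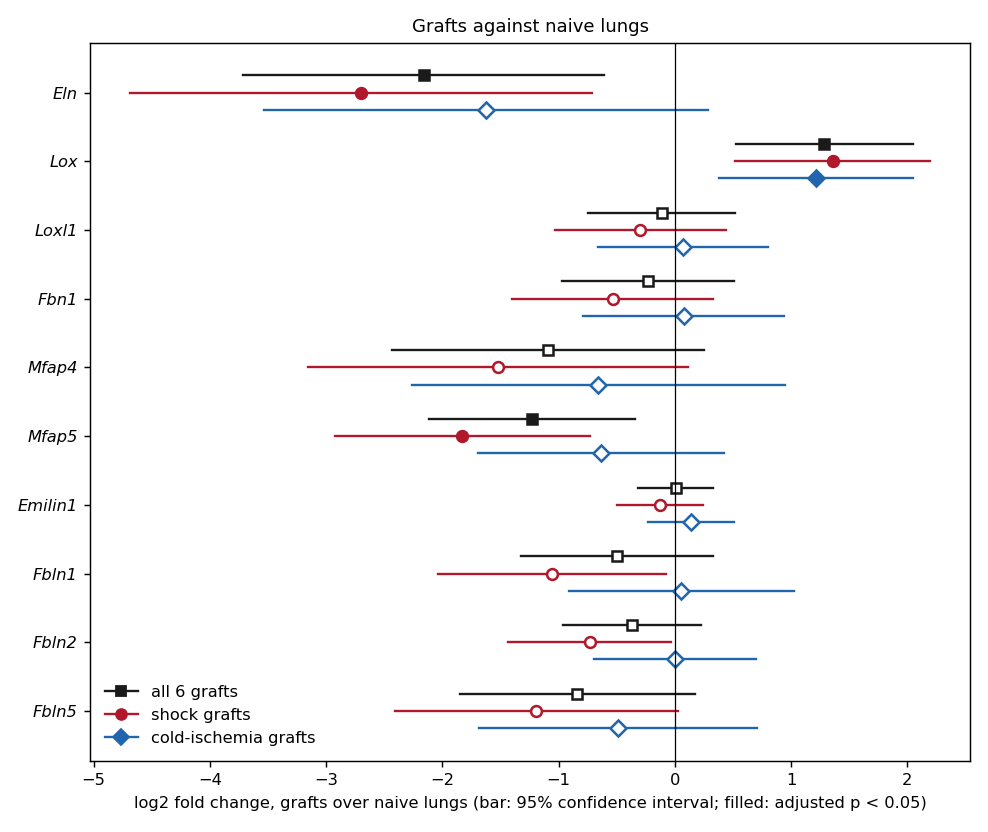
Log2 fold change of each elastic fibre gene against naive lungs in all 6 grafts (squares), shock grafts (circles) and cold-ischemia grafts (diamonds), with 95% confidence intervals and filled symbols where the edgeR adjusted p was under 0.05. Lox lies to the right of 0 in all 3 comparisons, while the intervals of Eln reach from -4.68 to 0.29.

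The number of called members turned on single libraries. In all 6 grafts against naive lungs it was 6 without shock replicate 3, where 43.8% of all genes were called. It was 1 without naive replicate 2 (29.7% of all genes) or without naive replicate 3 (33.8%). In shock grafts it was 6 without shock replicate 3 (40.9% of all genes), 1 without shock replicate 2 (35.6%) and 1 without naive replicate 3 (32.7%). In cold-ischemia grafts it was 0 without cold-ischemia replicates 1 or 2 or naive replicates 1 or 2, where 20.8% to 24.4% of all genes were called. With both doubtful libraries left out, 6 of 10 members were called in shock grafts against naive lungs, where 42.1% of all genes were called, Lox higher and Mfap4, Mfap5, Fbln1, Fbln2 and Fbln5 lower. Fbln5 then fell by 2.25 on the log2 scale (edgeR adjusted p = 0.000126) and Mfap4 by 3.14 (edgeR adjusted p = 0.0011), while Eln missed the threshold (log2 fold change -2.36, edgeR adjusted p = 0.1).

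Shock grafts against cold-ischemia grafts, the comparison that asks about the donor's shock, gave 0 called members with the groups of the titles, as it gave 0% of the 15834 genes tested. Without adjustment, edgeR's p was under 0.05 for 3 of the 10 members and for 1152 of all genes, and DESeq2 called 0 members and 6 genes in all. Libraries of the groups did not overlap for 2 of the 10 members, Fbln2 and Mfap5, against 10.4% of the genes tested. The 3 members under the unadjusted threshold were Fbln1 (log2 fold change -1.11 ± 0.45, SE, edgeR adjusted p = 0.671), Mfap5 (-1.19 ± 0.49, 0.671) and Fbln2 (-0.73 ± 0.32, 0.671). The intervals of the other members were wide: that of Eln reached from -2.96 to 0.82 and that of Lox from -0.68 to 0.97.

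With the grouping of the authors' tables, Fbln5 fell by 1.81 ± 0.22 on the log2 scale in shock grafts against cold-ischemia grafts (SE, edgeR adjusted p = 0.0161) and was the single member called, beside 0.783% of all genes. Its level was 44.8 ± 15.5 CPM in the shock grafts of the tables and 157 ± 12.9 CPM in their cold-ischemia grafts (SD, n = 3 each). Mfap4 had 131 ± 98.2 CPM in the shock grafts of the tables and 534 ± 37.2 CPM in their cold-ischemia grafts, and its log2 fold change of -2.02 ± 0.50 did not pass (edgeR adjusted p = 0.0801). Under this grouping the libraries of the groups did not overlap for 3 of the 10 members, Fbln1, Fbln5 and Mfap4, against 23.2% of the genes tested. With replicates named by their titles, the call of Fbln5 was lost without shock replicate 1 (edgeR adjusted p = 0.0664) or without shock replicate 3 (0.0616), with log2 fold changes of -1.80 and -1.81. Without cold-ischemia replicate 2, 3.12% of all genes and 3 members were called: Fbln5 (log2 fold change -2.09, edgeR adjusted p = 0.00382), Mfap4 (-2.80, 0.0175) and Fbln1 (-1.79, 0.0401). With both doubtful libraries left out, which leaves 2 grafts in each graft group, Fbln5 fell by 2.09 (edgeR adjusted p = 0.0265). In the authors' deposited table of this comparison, the log2 fold change was -1.53 for Fbln5 (adjusted p = 1.14e-08) and -1.37 for Mfap4 (adjusted p = 0.000431).

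**Figure D3:**
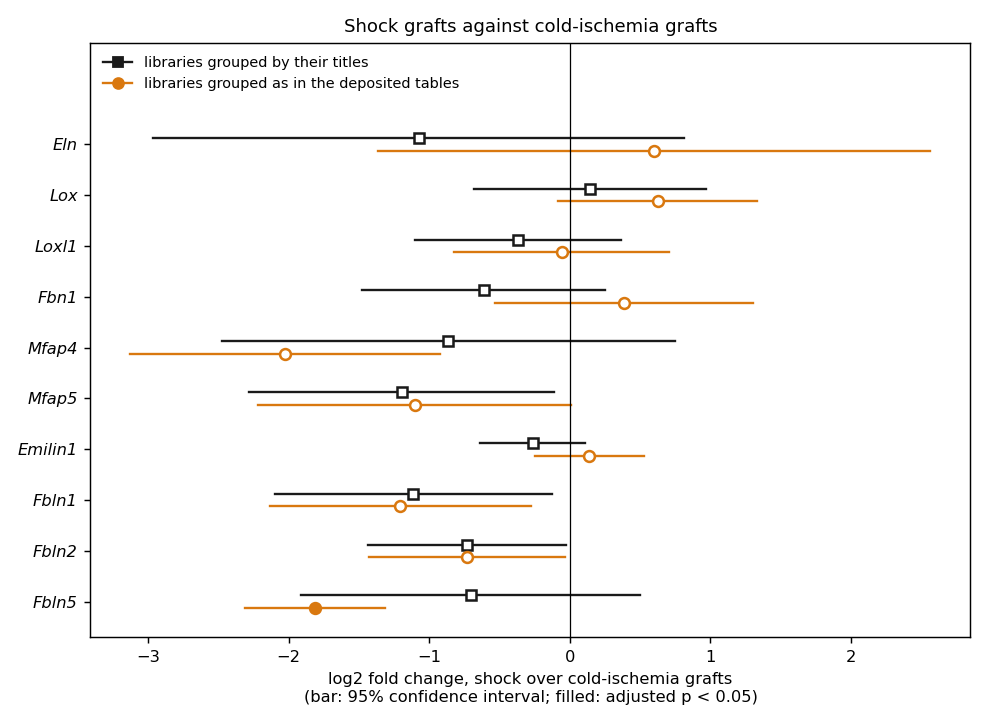
Log2 fold change of each elastic fibre gene in shock grafts against cold-ischemia grafts, with the groups of the titles (squares) and of the deposited tables (circles), with 95% confidence intervals and filled symbols where the edgeR adjusted p was under 0.05. Fbln5 lies at -1.81 by the tables and -0.70 by the titles, Mfap4 at -2.02 and -0.86, and Eln at 0.60 and -1.07.

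The choice of grouping also changed the counts against naive lungs. With the tables' grouping, shock grafts against naive lungs gave 5 called members, Lox higher and Mfap4, Mfap5, Fbln1 and Fbln5 lower, where 46.1% of all genes were called. Fbln5 then fell by 1.97 (edgeR adjusted p = 7.51e-05) and Mfap4 by 2.37 (edgeR adjusted p = 0.00342). Fbln1 fell by 1.12 (edgeR adjusted p = 0.0483). Cold-ischemia grafts gave 1, Lox, where 34.8% of all genes were called. All 6 grafts gave 5 with the tables' grouping, Lox higher and Eln, Mfap5, Mfap4 and Fbln5 lower, where 46.4% were called. Of these 5, Mfap4 and Fbln5 were not called in all 6 grafts with the groups of the titles. A direct test of the difference between the graft groups in their change from naive lungs is the comparison of shock with cold-ischemia grafts given above, in which Fbln5 passed in the fit of all libraries with the tables' grouping and in the fit without both doubtful libraries.

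Over the 6 grafts the members fell into loose sets by Pearson correlation of log2 CPM. Fbln1 and Mfap5 (r = 0.995), Fbln2 and Mfap5 (r = 0.984) and Fbln5 and Mfap4 (r = 0.978) followed each other, and Eln and Fbn1 did so less closely (r = 0.853). These are descriptions of 6 libraries and carry no test. Shock replicate 2 was the lowest of them for each gene of these pairs except Eln, which was lowest in shock replicate 3. The level of Fbln1, Fbln2, Mfap4 and Mfap5 in that library was 15.3, 9.62, 51.4 and 3.79 CPM.

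Among 18 other genes of elastic fibres and microfibrils, 17 were tested. In all 6 grafts against naive lungs 2 rose, 3 fell and 12 did not pass, where 41.8% of all genes were called. Their median log2 fold change was -0.40, beside -0.05 over all genes. With the tables' grouping 2 rose, 5 fell and 10 did not pass, where 46.4% of all genes were called. Emilin2, a relative of Emilin1, had 90.0, 101 and 67.8 CPM in shock grafts 1 to 3 and 58.3, 75.3 and 69.8 CPM in cold-ischemia grafts 1 to 3, against 14.8, 19.5 and 12.5 CPM in naive lungs 1 to 3. It rose by 2.29 ± 0.20 on the log2 scale (SE, edgeR adjusted p = 1.05e-05). Mfap2, also called MAGP-1 and a close relative of Mfap5, had 12.5, 6.18 and 9.40 CPM in shock grafts 1 to 3 and 11.3, 11.9 and 20.1 CPM in cold-ischemia grafts 1 to 3, against 43.4, 50.03 and 62.5 CPM in naive lungs 1 to 3. Its groups did not overlap, and it fell by 2.16 ± 0.24 (edgeR adjusted p = 5.4e-05). Loxl4, another lysyl oxidase paralog, rose by 1.65 ± 0.18 (edgeR adjusted p = 5.41e-05).

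**Figure D4:**
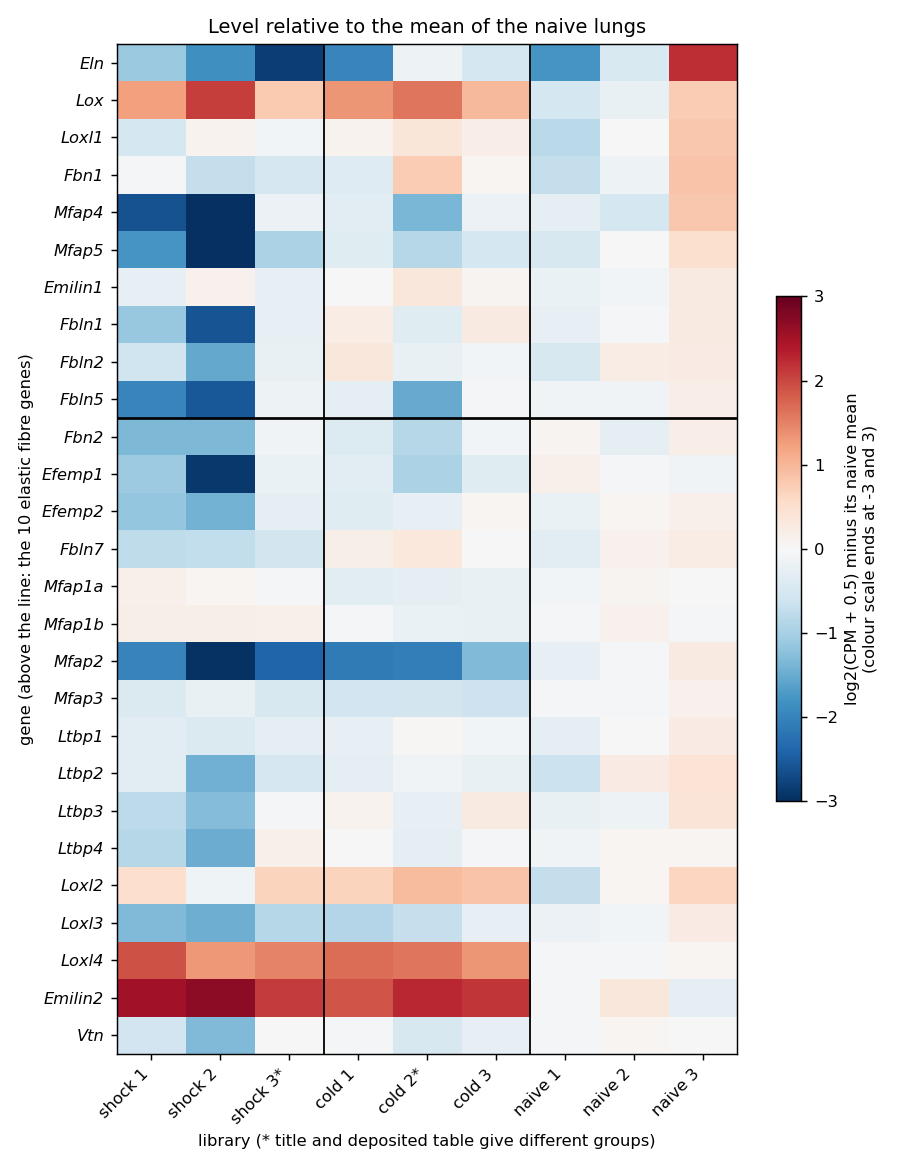
Level of the 10 elastic fibre genes (above the line) and 17 other elastic fibre and microfibril genes (below it) in each library, as log2(CPM + 0.5) minus the mean of the 3 naive lungs, on a colour scale that ends at -3 and 3, with an asterisk at the libraries of disputed group. Lox, Loxl4 and Emilin2 are above the naive mean in all 6 grafts and Mfap2 is below it in all 6, while the fibulins and Mfap4 vary among the grafts.

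Genes that process or bind the fibre were counted in the same comparison of all 6 grafts with naive lungs. In it 41.8% of all genes tested were called, 22.1% higher and 19.7% lower. Of 9 ADAMTS and ADAMTS-like genes of microfibrils, 1 rose and 2 fell. Adamts10 fell by 1.06 ± 0.27 (SE, edgeR adjusted p = 0.00854) and Adamtsl4 rose by 0.40 ± 0.11 (edgeR adjusted p = 0.0108). Adamts17 fell by 1.94 ± 0.63 (edgeR adjusted p = 0.0307), but like Eln it stood high in 1 naive lung, with 40.0 CPM in naive replicate 3 and between 1.15 and 6.83 CPM in all other libraries. Of 11 elastin-degrading enzymes 10 were tested, and 6 rose, 1 fell and 3 did not pass, with a median log2 fold change of 0.89. Mmp9, a gelatinase that neutrophils carry, rose by 3.55 ± 0.42 (edgeR adjusted p = 9.41e-05), and Mmp12, the macrophage elastase, by 1.04 ± 0.28 (edgeR adjusted p = 0.0126). Mmp2, a gelatinase of fibroblasts, fell by 0.96 (edgeR adjusted p = 0.0432), but was not called with the tables' grouping (0.0592), where 6 enzymes rose and 4 did not pass. Of the 6 enzymes that rose, 3 proteases of neutrophil granules were at levels too low for a stable fold change: Ctsg (edgeR adjusted p = 0.0185) at most at 1.35 CPM in the grafts and 0.0905 CPM in naive lungs, Elane (0.0202) at 2.31 and 0.152 CPM, and Prtn3 (0.0293) at 2.5004 and 0.543 CPM.

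TGF-beta is held in the matrix by latent TGF-beta binding proteins on microfibrils, and induces Eln and Lox in fibroblasts. Of 12 genes of its signalling and of proprotein cleavage, 8 rose and 2 fell in all 6 grafts against naive lungs. In that comparison 22.1% of all genes were called higher and 19.7% lower. Smad3, which carries the signal to the nucleus, rose by 1.202 ± 0.14 (SE, edgeR adjusted p = 9.42e-05), Furin, a protease that cleaves the TGF-beta precursor, by 1.44 ± 0.17 (edgeR adjusted p = 0.000106), and the ligand gene Tgfb1 by 1.06 ± 0.14 (edgeR adjusted p = 0.000181). The genes that fell were Smad7, an inhibitor of the pathway, by 1.03 (edgeR adjusted p = 0.00339), and the ligand gene Tgfb3, by 0.69 (edgeR adjusted p = 0.00575). Of 8 integrin genes whose products bind microfibrils or fibulins, 4 rose and 1 fell, beside the same shares of all genes. Itgav rose by 1.56 ± 0.19 (edgeR adjusted p = 0.000114), Itga5 by 2.32 ± 0.36 (edgeR adjusted p = 0.000557) and Itgb6, a subunit of a receptor that activates latent TGF-beta, by 1.25 ± 0.21 (edgeR adjusted p = 0.000804).

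Of 10 collagens of the lung matrix, 1 fell in all 6 grafts against naive lungs and 9 did not pass. Their median log2 fold change was -0.67, and 41.8% of all genes were called in that comparison. Col3a1 fell by 1.91 ± 0.51 (SE, edgeR adjusted p = 0.0116, and 0.0648 with the tables' grouping). It had 171, 32.1 and 235 CPM in shock grafts 1 to 3 and 385, 610 and 625 CPM in cold-ischemia grafts 1 to 3. Naive lungs 1 to 3 had 471, 935 and 1750 CPM, so the groups overlapped. The next smallest adjusted p-values were those of Col6a2 (log2 fold change -0.66, 0.0817) and Col1a2 (-0.77, 0.119). In shock grafts against naive lungs 5 of the 10 collagens fell with the groups of the titles, where 39.9% of all genes were called. Naive replicate 3 was the highest naive lung for all 10 collagens, and shock replicate 2 the lowest graft for 9 of the 10. Fits without either library are not given for the collagens. With the groups of the tables edgeR called 0 of the 10 collagens, where 46.1% of all genes were called, with 3 collagens at an unadjusted p under 0.05. Across the 6 lists of other pathway genes, 66 were tested in shock grafts against cold-ischemia grafts and edgeR called 0 of them, with 16 at an unadjusted p under 0.05.

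Markers of the cells that make or could dilute these transcripts were summed per library in CPM. In bulk samples, fewer cells of a type and less RNA per cell cannot be told apart. The sum of 6 smooth muscle markers was 325 to 875 in shock grafts, 762 to 803 in cold-ischemia grafts and 633 to 783 in naive lungs. That of 6 fibroblast markers was 1025 to 1693 in shock grafts, 1386 to 1811 in cold-ischemia grafts and 1658 to 2466 in naive lungs. In shock replicates 1 and 2, where Fbln5, Fbln1, Mfap4 and Mfap5 were lowest, the smooth muscle sums were 474 and 325. In cold-ischemia replicate 2, where Fbln5 and Mfap4 were also low, the smooth muscle sum was 762. That is within the range of naive lungs but below the 802 to 875 of the other 3 grafts. For 3 of the 6 smooth muscle markers, Tagln, Actg2 and Des, shock replicates 1 and 2 and cold-ischemia replicate 2 lay below all other grafts. Acta2, Myh11 and Cnn1 did not part them. The fibroblast sums of these 3 grafts were 1025, 1155 and 1386, the lowest of the 9 libraries. Of the 6 fibroblast markers, 2 (Npnt and Lum) were lower in all 3 than in the other grafts. Npnt had 443, 370 and 656 CPM in them and 802 to 1145 CPM in the other grafts. Other markers differed: Pdgfra and Tcf21 were highest of the grafts in shock replicate 2, at 520 and 52.5 CPM, and Dcn and Col13a1 did not part these grafts. In the same 3 grafts the sums of 5 pericyte markers were 346, 305 and 361, also the lowest of the 9 libraries. They were 373 to 407 in the other grafts and 457 to 541 in naive lungs. For 3 of the 5 pericyte markers, Cspg4, Cox4i2 and Higd1b, these 3 grafts lay below all other grafts. Pdgfrb was highest of the grafts in shock replicate 2, at 148 CPM, and Notch3 did not part these grafts. In shock grafts against cold-ischemia grafts with the tables' grouping, 3 markers were called beside Fbln5. The smooth muscle marker Tagln fell by 1.08 ± 0.21 (SE, edgeR adjusted p = 0.0451), the pericyte marker Higd1b fell by 1.06 ± 0.19 (edgeR adjusted p = 0.0373), and the mesothelial marker Msln rose by 2.68 ± 0.41 (edgeR adjusted p = 0.0205). Each was the only marker called of its list, of 6, 5 and 5 tested, beside 0.783% of all genes. The other 4 mesothelial markers did not pass, and the median log2 fold change of the 5 was 1.06. Among them Upk1b had 17.5, 5.83 and 23.2 CPM in the tables' shock grafts and 21.1 to 32.4 CPM in their cold-ischemia grafts. In all 6 grafts against naive lungs, 1 of 6 smooth muscle markers rose and 0 fell, and 2 of 6 fibroblast markers, Tcf21 and Npnt, fell. In that comparison 41.8% of all genes were called. The sum of 6 adventitial fibroblast markers was 4565 and 3151 in shock replicates 1 and 2 and 5077 in cold-ischemia replicate 2. It was 4743 to 5192 in the other grafts and 4800 to 5193 in naive lungs. Gsn made up most of this sum, with 4687 CPM in cold-ischemia replicate 2. For 4 of the 6 markers, Pi16, Dpt, Serpinf1 and Clec3b, these 3 grafts lay below all other grafts. Over all genes tested, 23.2% parted the same grafts in either direction. Clec3b had 29.0, 9.07 and 43.8 CPM in these 3 grafts, while Gsn and Dcn did not part them.

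All 5 mesothelial markers fell in all 6 grafts against naive lungs, with sums of 30.6 to 58.3 CPM in shock grafts, 27.0 to 79.4 CPM in cold-ischemia grafts and 230 to 290 CPM in naive lungs. All 6 neutrophil markers rose, with sums of 1344 to 2580 CPM in shock grafts, 867 to 1735 CPM in cold-ischemia grafts and 37.8 to 64.5 CPM in naive lungs. The sum of 4 heart muscle markers was 740 in shock replicate 3 and 690 in cold-ischemia replicate 1, against 47.1 to 285 in the other grafts and 238 to 451 in naive lungs. Fat markers summed to 21.4 to 27.1 CPM in shock grafts, 11.9 to 19.5 CPM in cold-ischemia grafts and 25.0 to 253 CPM in naive lungs, and 4 of the 5 tested fell. Alveolar epithelial markers, which identify the tissue as lung, summed to between 15003 and 22149 CPM in every library. No marker list had a gene at 0 in all 9 libraries. The part of any of these cells in the changes of the elastic fibre genes was not tested.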

How the data were processed

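RNA of 9 whole left lungs was sequenced as paired reads of 150 bp, from 1 µg of total RNA per library, per the labels' protocols. The authors deposited 3 tables of whole-number read counts per gene, with FPKM, a normalized signal (the count divided by 1 size factor per library), log2 fold changes and p-values beside them. The submitters' processing notes name the build mm10 and the tools STAR and STAR-Fusion, HTSeq, edgeR and DESeq2; versions, annotation and use of strand are not given in the sources used here. Counts of each library agreed between tables in all 9 repeats.

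Counts were tested with edgeR 4.0.16 in R 4.3.3 (two-sided quasi-likelihood test, TMM, filterByExpr), 15834 genes and 9 libraries in 1 fit with 6 residual degrees of freedom. A gene was called where its p, adjusted by Benjamini-Hochberg over every gene tested, was under 0.05. Log2 fold changes are given ± SE. DESeq2 1.42.0 and the settings of the closing section were alternatives. The test was checked on simulated counts. The titles do not say that libraries are separate animals, so p-values measure the spread between these samples. Members were named in every comparison, and other lists by up to 3 genes of smallest adjusted p. Members and lists were chosen with earlier results of these data known. Gene places are those of the tables, and promoter windows are RefSeq's. Log2 CPM for correlations used a prior count of 2.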

Additional observations from a re-analysis of the deposited data

Results flagged for a closer look

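Fbln5 differed between shock and cold-ischemia grafts in its change from naive lungs when the libraries were grouped as in the deposited tables: its log2 fold change between the 2 graft groups was -1.812 (edgeR adjusted p = 0.0161). With the groups of the titles it was -0.703 (edgeR adjusted p = 0.72), and with the 2 disputed libraries left out it was -2.094 (edgeR adjusted p = 0.0265). That last fit compares 2 shock with 2 cold-ischemia grafts, all of them also in the fit by the tables, so it is not separate support. The call with the tables' grouping was lost without shock replicate 1 or without shock replicate 3, as named by the titles. All 3 shock grafts of the tables lay below all 3 of their cold-ischemia grafts. Groups of 3 libraries are too small for a test of single outlying samples.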

How the results depend on the processing

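Called members in all 6 grafts, cold-ischemia grafts and shock grafts against naive lungs numbered 3, 1 and 3. Leaving out 1 library in turn gave 1 to 6, 0 to 1 and 1 to 6, while 29.7% to 43.8%, 20.8% to 34.8% and 28.5% to 40.9% of all genes were called. The tables' grouping gave 5 for all 6 grafts (46.4% of all genes) and 5 for shock grafts (46.1%). Leaving out both doubtful libraries gave 0 for cold-ischemia grafts (26.4% of all genes) and 6 for shock grafts (42.1%), and upper-quartile scaling 5 for shock grafts (46.4%). In shock against cold-ischemia grafts the count of members was 1 with the tables' grouping, with a range of 0 to 3 over libraries left out of it, and 1 without both doubtful libraries. The count of all genes was 6 with DESeq2, 124 with the tables' grouping and 39 without both doubtful libraries. The replicate block, which adds the replicate number of the titles to the fit, gave 5 called members in shock grafts against naive lungs (36.6% of all genes), and Eln was then called neither in all 6 grafts (edgeR adjusted p = 0.181) nor in shock grafts (0.185). Samples of the same number deviated together in no pair by more than r = 0.096, with a low of -0.394 over 9 pairs. Samples of other numbers reached 0.32. Pairing by number was thus not seen. The check uses deviations from means of 3 libraries under the disputed grouping of the titles, so it cannot exclude pairing.

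Signs turned mainly for members near 0, none of them called. In all 6 grafts against naive lungs, the log2 fold change with 1 library left out ranged from -0.532 to 0.326 for Fbn1, -0.441 to 0.390 for Loxl1 and -0.097 to 0.153 for Emilin1. Emilin1 was -0.194 with upper-quartile scaling, -0.010 without the filter and -0.013 without both doubtful libraries. In cold-ischemia grafts against naive lungs the ranges were -2.136 to 0.272 for Eln, -0.067 to 0.233 for Fbln1, -0.214 to 0.123 for Fbln2, -0.295 to 0.632 for Fbn1 and -0.251 to 0.575 for Loxl1. Upper-quartile scaling gave -0.124 for Fbln1, -0.096 for Fbn1, -0.101 for Loxl1 and -0.043 for Emilin1. The tables' grouping gave -0.405 for Fbn1, -0.074 for Loxl1 and -0.061 for Emilin1. Fbln2 was 0.015 with RLE size factors, 0.012 with DESeq2, 0.001 with only the groups compared and 0.112 without both doubtful libraries, where Fbn1 was -0.294. In shock grafts against naive lungs the ranges were -0.844 to 0.020 for Fbn1, -0.630 to 0.206 for Loxl1 and -0.262 to 0.021 for Emilin1, which was 0.080 with the tables' grouping. In shock against cold-ischemia grafts Lox ranged from -0.294 to 0.388, and the tables' grouping gave 0.602 for Eln, 0.388 for Fbn1 and 0.141 for Emilin1. Within that grouping Fbn1 ranged from -0.077 to 0.679, Loxl1 from -0.255 to 0.160 and Emilin1 from -0.000 to 0.286. The cause of these changes was not tested.

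With 3 libraries per group and 1 naive lung that stands high for all 10 genes, changes of Eln cannot be separated from the spread of the naive lungs. The disputed group of 2 grafts limits every statement on shock against cold-ischemia grafts.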
